A study of Mus musculus with 14 samples.

Results

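The 10 early lymphoid genes are Flt3, Il7r, Rag1, Rag2, Dntt, Ebf1, Cd79a, Igll1, Vpreb1 and Tcrg-C1, taken by symbol from the 45706 genes of the deposited mouse expression tables. None of the symbols was repeated. After a filter on low counts, 9 of the 10 were tested in LK cells (all but Ebf1) and 9 in fetal liver cells (all but Dntt). Lymphocytes arise from multipotent progenitors that first display the cytokine receptors FLT3 and IL-7R and switch on the recombination machinery. RAG1 and RAG2 cut antigen receptor genes, and terminal transferase, the product of Dntt, adds bases at the joints. EBF1 then commits cells to the B lineage, where CD79A and the surrogate light chain proteins IGLL1 and VPREB1 form the receptor complex of early B cells, while Tcrg-C1 is a constant segment of the T cell receptor gamma locus.

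The libraries come from mice in which Prmt5, the gene of a type II protein arginine methyltransferase, could be deleted. LK cells are a sorted progenitor population, here of Mx1-cre;PRMT5fl/fl mice (KO) and of PRMT5fl/fl mice without the recombinase (WT), both after poly(I:C), given 7 days earlier, which induces interferon and through it Mx1-cre. There were 3 libraries per LK group, with letters A, B and C, and the labels name no mice for them, so p-values measure the spread between these libraries, which may be technical. The fetal liver cells were of stage E14.5 and were sorted by Ter119, a surface antigen of maturing erythroid cells, into Ter119neg and Ter119pos fractions. They came from Vav-cre;PRMT5fl/fl embryos (KO), in which the recombinase is active across the blood system, and from PRMT5fl/fl embryos (WT). Each of the 4 fetal groups held 2 libraries, with letters A and B. Both KO mice (1 and 2) were used for both fractions, as was WT mouse 4, whereas library A of Ter119neg WT came from mouse 3 and that of Ter119pos WT from mouse 5.

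Library totals ran between 19514550 and 30976961 counts. Prmt5 averaged 11.5 ± 0.903 CPM (counts scaled to library size with TMM factors) in LK KO libraries and 81.0 ± 25.5 CPM in LK WT libraries (SD, n = 3 each), a log2 fold change of -2.81 (edgeR adjusted p = 0.00669). In Ter119neg cells Prmt5 averaged 4.38 ± 0.179 CPM in KO and 52.0 ± 0.347 CPM in WT libraries (SD, n = 2 each; edgeR adjusted p = 1.45e-07). Of the LK markers, Mpo ranged between 5292 and 7923 CPM in LK KO and between 10480 and 15860 CPM in LK WT libraries and made up most of the summed level. Kit ranged between 325 and 388 CPM in LK KO and between 209 and 295 CPM in LK WT libraries, and Kit, Cd34 and Gata2 were each higher in KO within every letter. Ly6a, the gene of Sca-1, stood at 1.62 CPM at most in all 6. Erythroid markers summed to at least 173100 CPM in Ter119pos libraries and to at most 829 CPM in Ter119neg libraries. In both letter B LK libraries much of the count came from Rn18s-rs5, a gene of 18S ribosomal RNA, 23.4% in KO and 18% in WT, against 0.179% at most in the other 4 LK libraries. LK libraries of the same letter deviated together from their group means, with correlations of 0.604, 0.719 and 0.73 across genes, so LK results are also given with the letter as a block where that changes a call or moves a count by over 1.5 times.

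In LK cells the early progenitor and recombination genes stood higher in KO than in WT within each letter, with Rag2 in letter B as the exception. The share of all genes with KO above WT in every letter was not computed, so this direction is a description. Of the genes of the early B cell receptor complex, Igll1 stood lower in KO within every letter, and Cd79a and Vpreb1 differed in direction between letters. Without the block, 1 of 9 tested members was called higher (Tcrg-C1) and 0 lower at an edgeR adjusted p under 0.05, where 1.82% of all 13771 tested genes were called, 1.15% higher and 0.661% lower. At an unadjusted p under 0.05 the counts were 3 higher and 0 lower, and DESeq2 and limma-voom each called 1 higher and 0 lower. With the letter as a block 5 members were called higher (Rag1, Dntt, Il7r, Flt3 and Tcrg-C1) and 0 lower, where 22.7% of all genes were called, 9.9% higher and 12.8% lower. The median log2 fold change of the 9 members was 1.20 and that of all genes -0.09. In bulk libraries such as these, a larger share of cells of a type and more RNA per cell cannot be told apart. Between the LK groups the 4 macrophage markers (Adgre1, Csf1r, C1qa and Cd5l) summed to between 77.6 and 127 CPM in KO and between 155 and 256 CPM in WT libraries. Nearly all of that was Csf1r, which other myeloid progenitors also express, at 75.8 to 124 CPM in KO and 143 to 244 CPM in WT libraries. Adgre1 had 1.61 to 3.35 CPM in KO and 9.04 to 11.5 CPM in WT libraries and was called lower (log2 fold change -2.07, edgeR adjusted p = 0.0346). C1qa and Cd5l were at 0 in KO library C and at 1.46 CPM at most elsewhere. The part of cells that express Csf1r or Adgre1, and of the 18S share in letter B, in the member values was not tested.

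FLT3 is the receptor of a growth factor that sustains lymphoid-primed progenitors. Flt3 stood at 151, 51.5 and 69.7 CPM in KO libraries A, B and C, against 66.8, 23.2 and 42.2 CPM in WT libraries A, B and C. The groups overlapped, because WT library A stood above KO library B, but KO was higher within every letter, by 2.26-fold, 2.22-fold and 1.65-fold. The log2 fold change was 1.04 (SE 0.51, edgeR adjusted p = 0.349), and 1.01 with an adjusted p of 0.00598 with the letter as a block. IL-7R alpha, the product of Il7r, is the receptor chain through which IL-7 maintains early B and T cell precursors. Il7r was scarce, at 7.12, 0.535 and 1.39 CPM in KO libraries A, B and C, against 1.05, 0.162 and 0.291 CPM in WT libraries A, B and C. It was higher in KO within each letter, by 6.75-fold, 3.30-fold and 4.78-fold, at a log2 fold change of 2.498 with an SE of 1.03 (edgeR adjusted p = 0.273; with the letter block 2.47, adjusted p = 0.00493).

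Dntt encodes the polymerase that adds bases without a template, which widens the receptor repertoire. Its level in LK cells was 266, 29.0 and 33.6 CPM in KO libraries A, B and C, against 23.7, 2.51 and 2.39 CPM in WT libraries A, B and C. All KO libraries were above all WT libraries, and the difference within a letter was much alike, 11.2-fold, 11.5-fold and 14.1-fold. Dntt and Tcrg-C1 were the 2 of 9 tested members with that separation, which 11.3% of all tested genes showed in that direction. The log2 fold change of Dntt was 3.51 (SE 1.25, edgeR adjusted p = 0.213), and 3.61 with an adjusted p of 7.18e-05 with the letter as a block. Without the block, the size of the change moved with the letter A libraries. Leaving out KO library A gave log2 fold changes of 1.70 for Dntt, 0.89 for Il7r, 0.46 for Flt3 and -0.04 for Rag1, and leaving out WT library A gave 5.53, 3.68, 1.51 and 5.64 for the same genes.

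Rag1 and Rag2 lie next to each other on chromosome 2 and are transcribed towards each other. Rag1 occupies chr2:101638282-101649501 on the minus strand and Rag2 chr2:101624718-101632529 on the plus strand (GRCm38). The 250 bases before each start site (RefSeq, GRCm38.p6; Rag1 chr2:101649533-101649782, minus strand; Rag2 chr2:101624462-101624711, plus strand) are shown because both genes stood higher in LK KO and lower in Ter119neg KO libraries than in their WT libraries on average. They were searched on both strands for the EBF1 palindrome CCCNNGGG, the Ikaros core TGGGAA and the PU.1 core GAGGAA. E-boxes of the type bound by E2A, which read CAGGTG on either strand or are the palindrome CAGCTG, were also searched. The box TATAAA was searched on the strand shown alone. Capitals mark the matches, none of which overlap.
Rag1: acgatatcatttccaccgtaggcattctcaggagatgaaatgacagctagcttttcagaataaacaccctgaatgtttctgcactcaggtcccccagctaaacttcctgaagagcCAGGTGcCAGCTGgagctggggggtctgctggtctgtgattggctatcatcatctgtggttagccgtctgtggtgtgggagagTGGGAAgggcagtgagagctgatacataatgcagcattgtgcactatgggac
Rag2: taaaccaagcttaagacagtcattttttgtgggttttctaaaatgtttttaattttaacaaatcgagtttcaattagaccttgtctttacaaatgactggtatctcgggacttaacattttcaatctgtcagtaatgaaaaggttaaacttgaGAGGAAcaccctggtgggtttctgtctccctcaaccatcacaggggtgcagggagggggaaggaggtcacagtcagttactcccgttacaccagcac
The Rag1 window held E-boxes from -135 to -130 and from -128 to -123 and an Ikaros core from -52 to -47, and the Rag2 window a PU.1 core from -97 to -92. Among windows of the same length before 32851 RefSeq genes, 27.7% held such an E-box, 21.6% an Ikaros core, 23.3% a PU.1 core, 11.8% the EBF1 palindrome and 7.59% TATAAA. The windows of Dntt, Il7r and Flt3 held none of these letters, which says nothing of the factors themselves.

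Rag1 stood at 7.34, 0.335 and 0.483 CPM in LK KO libraries A, B and C, against 1.05, 0.162 and 0 CPM in WT libraries A, B and C. Outside letter A these are few reads, 5 and 17 counts in KO against 2 and 0 counts in WT for letters B and C. The log2 fold change was 2.65 (SE 1.52, edgeR adjusted p = 0.427; with the letter block 2.87, adjusted p = 0.0146). Rag2 stood at 3.86, 1.00 and 1.31 CPM in KO libraries A, B and C, against 1.14, 1.14 and 0.467 CPM in WT libraries A, B and C. Letter B showed almost no difference, with a ratio of 0.885, and Rag2 did not pass in either fit (log2 fold change 1.20, SE 0.63, edgeR adjusted p = 0.383; with the letter block 1.18, adjusted p = 0.0819). The unnamed gene B230118H07Rik overlaps both genes, on the strand of Rag1, and had 13.4 to 17.8 CPM in LK KO and 15.9 to 19.3 CPM in LK WT libraries. No source used here says whether the counting by the authors used strand.

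The B lineage members had levels of 3.24 CPM or less in every LK library, and 0 of the 3 tested were called in either direction by edgeR, DESeq2 or limma-voom. Ebf1, the transcription factor that commits cells to the B lineage, had 1.29, 0.201 and 0.0569 CPM in KO libraries A, B and C, against 1.05, 0.0811 and 0.0291 CPM in WT libraries A, B and C, and was too low to be tested. Cd79a, the signalling chain of the B cell receptor, had 1.08, 0.134 and 0.171 CPM in KO libraries A, B and C, against 1.95, 0.811 and 0.0875 CPM in WT libraries A, B and C. Its log2 fold change was -0.99 (SE 1.10, edgeR adjusted p = 0.688), with overlapping groups. Igll1 and Vpreb1 encode the surrogate light chain that pairs with the immunoglobulin heavy chain before a light chain is made. Igll1 averaged 1.12 ± 1.14 CPM in KO and 1.72 ± 1.19 CPM in WT libraries (SD, n = 3 each), at a log2 fold change of -0.59 with an SE of 0.93 (edgeR adjusted p = 0.778). Within letters A, B and C its KO over WT ratio was 0.880, 0.363 and 0.557. Vpreb1 averaged 1.51 ± 0.801 CPM in KO and 1.94 ± 1.36 CPM in WT libraries (SD, n = 3 each), at a log2 fold change of -0.33 with an SE of 0.72 (edgeR adjusted p = 0.842). None of the 3 tested B lineage members passed with the letter block, where the adjusted p was 0.301 for Cd79a, 0.196 for Igll1 and 0.677 for Vpreb1.

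The window before Igll1 (RefSeq, GRCm38.p6, chr16:16863986-16864235, minus strand) is shown because it was the 1 promoter among the members in the table that held the EBF1 palindrome, from -231 to -224, with E-boxes from -158 to -153 and from -8 to -3. Capitals mark these matches.
Igll1: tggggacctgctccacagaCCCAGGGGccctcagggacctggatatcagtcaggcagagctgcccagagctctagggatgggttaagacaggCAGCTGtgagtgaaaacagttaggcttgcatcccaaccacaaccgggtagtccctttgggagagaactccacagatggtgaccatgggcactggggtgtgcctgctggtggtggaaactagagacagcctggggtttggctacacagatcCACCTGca
Vpreb1 has a near-identical copy, Vpreb2, with 417 of 426 coding bases shared (97.9%), so reads could be split between them and the Vpreb1 values are uncertain. The first 120 coding bases (GENCODE M21, GRCm38) are set side by side, with capitals at the bases of Vpreb2 that differ from Vpreb1.
Vpreb1: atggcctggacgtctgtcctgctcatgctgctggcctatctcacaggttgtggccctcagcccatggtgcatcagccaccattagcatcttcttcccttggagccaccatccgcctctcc
Vpreb2: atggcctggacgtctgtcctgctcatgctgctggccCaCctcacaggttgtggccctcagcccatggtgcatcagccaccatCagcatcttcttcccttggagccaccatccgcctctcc
The topoisomerase gene Top3b, on the opposite strand, overlaps Vpreb1 and had 99.4 to 140 CPM in LK KO and 99.3 to 138 CPM in LK WT libraries.

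Tcrg-C1 was the 1 member called in LK cells without the block. Its level was 15.0, 33.3 and 20.6 CPM in KO libraries A, B and C, against 1.00, 1.14 and 0.350 CPM in WT libraries A, B and C. All KO libraries were above all WT libraries, by 14.9-fold, 29.4-fold and 59.0-fold within letters A, B and C. The log2 fold change was 4.84 (SE 0.54, edgeR adjusted p = 0.0102), and 4.76 with an adjusted p of 0.000683 with the letter as a block. Without the block it missed the threshold when WT library A was left out (5.13, edgeR adjusted p = 0.0691), when both letter B libraries were left out (4.75, adjusted p = 0.0506) and when both letter C libraries were left out (4.54, adjusted p = 0.063). Letter A was not the highest for Tcrg-C1, unlike for Dntt, Flt3, Il7r, Rag1, Rag2, Ebf1, Cd79a and Igll1, whose highest library in each genotype was A.

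**Figure D1:**
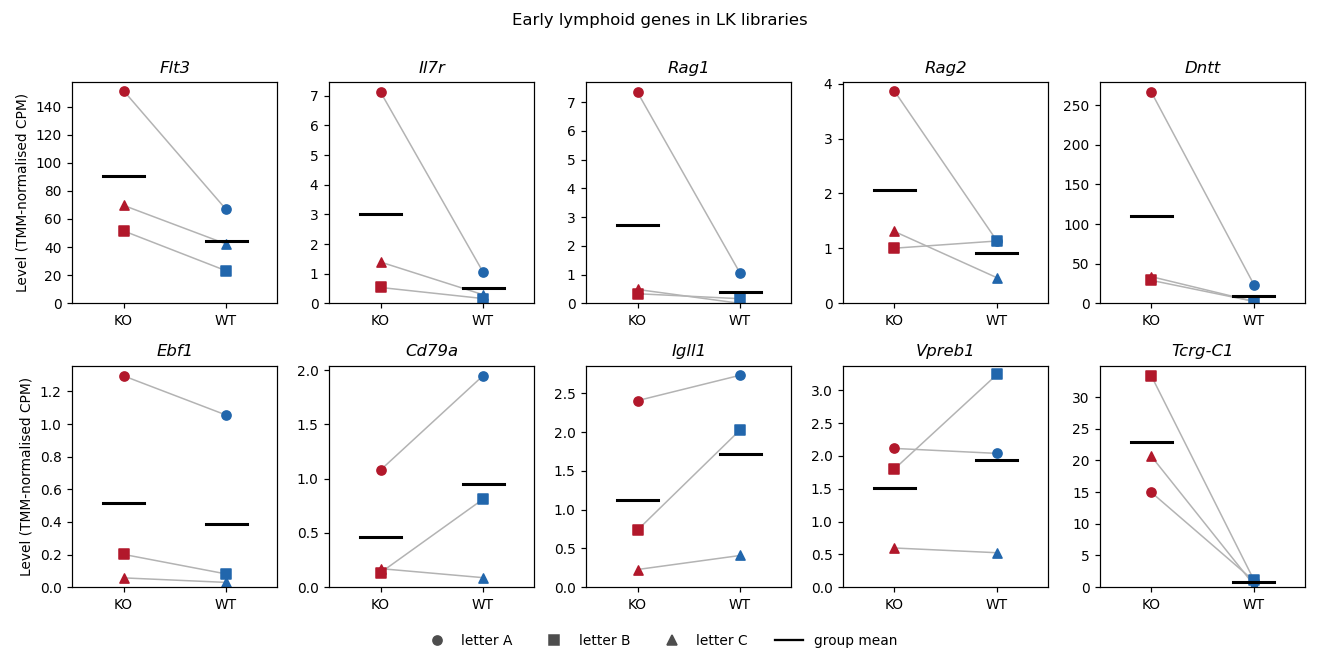
Level of each early lymphoid gene in LK libraries (TMM-normalised CPM, linear axes that start at 0 and differ between panels), KO left of WT. Each point is a library, its shape gives the letter, lines join libraries of the same letter, and bars are group means. Letter A is high in both genotypes for most genes, and Dntt and Tcrg-C1 are the genes whose KO points all lie above the WT points.

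In Ter119neg fetal liver cells Rag1 and Flt3 were lower in KO than in WT and Tcrg-C1 was higher. Of 9 tested members, 1 was called higher in KO (Tcrg-C1) and 2 lower (Rag1 and Flt3) at an edgeR adjusted p under 0.05, where 19.1% of all 15566 tested genes were called, 9.57% higher and 9.55% lower. In 7 members (Rag1, Rag2, Il7r, Flt3, Ebf1, Cd79a and Vpreb1) both KO libraries were below both WT libraries, and in 1, Tcrg-C1, above. Over all tested genes these separations occurred in 31% and 31.5%. The median log2 fold change of the 9 members was -1.22, against 0.01 over all genes. Dntt had 0 counts in all 8 fetal libraries, in contrast to LK cells. There its level per kilobase was 125, 13.6 and 15.8 CPM per kb in KO libraries A, B and C, above that of Tcrg-C1 (16.2 CPM per kb) in library A and below it in B and C (36.1 and 22.3 CPM per kb).

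Rag1 fell in Ter119neg cells. It stood at 1.02 CPM in KO library A and 1.14 CPM in KO library B, against 4.44 CPM in WT library A and 5.06 CPM in WT library B, a log2 fold change of -2.13 with an SE of 0.33 (edgeR adjusted p = 0.00096). Flt3 also fell, to 7.89 CPM in KO A and 5.96 CPM in KO B, against 13.6 CPM in WT A and 12.1 CPM in WT B (log2 fold change -0.89, SE 0.16, edgeR adjusted p = 0.0024). Both kept their call when any 1 of the 4 libraries was left out. Rag2 had 0.330 CPM in KO A and 0.319 CPM in KO B, against 0.798 CPM in WT A and 0.763 CPM in WT B, and narrowly missed the threshold (log2 fold change -1.26, SE 0.40, edgeR adjusted p = 0.0509). Il7r had 0.797 CPM in KO A and 0.851 CPM in KO B, against 1.73 CPM in WT A and 2.17 CPM in WT B (log2 fold change -1.24, SE 0.43, edgeR adjusted p = 0.0632). B230118H07Rik, the gene that overlaps Rag1 and Rag2, had 4.10 to 5.77 CPM in Ter119neg KO and 4.03 to 4.20 CPM in Ter119neg WT libraries.

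The B lineage members were low in both genotypes of Ter119neg cells and none passed the test. Ebf1 had 0.456 CPM in KO A and 0.585 CPM in KO B, against 1.27 CPM in WT A and 1.19 CPM in WT B (log2 fold change -1.22, SE 0.47, edgeR adjusted p = 0.0915). Cd79a had 0.137 CPM in KO A and 0.346 CPM in KO B, against 0.759 CPM in WT A and 0.907 CPM in WT B (log2 fold change -1.76, SE 0.57, edgeR adjusted p = 0.0508). For both genes the groups did not overlap. Igll1 had 0.880 CPM in KO A and 1.06 CPM in KO B, against 1.05 CPM in WT A and 1.62 CPM in WT B (log2 fold change -0.45, SE 0.38, edgeR adjusted p = 0.451). Vpreb1 rested on 12 counts in KO and 34.4 in WT over both libraries (log2 fold change -1.20, SE 0.75, edgeR adjusted p = 0.296). Rag2 and Cd79a lay close enough to the threshold that limma-voom called both, with Il7r, and a fit of the 4 Ter119neg libraries alone called 6 members lower.

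Tcrg-C1 rose in Ter119neg cells too. It stood at 9.27 CPM in KO A and 16.3 CPM in KO B, against 1.48 CPM in WT A and 0.239 CPM in WT B, a log2 fold change of 3.83 with an SE of 0.48 (edgeR adjusted p = 0.00024). The WT libraries differed from each other by a larger ratio than the KO libraries did, and without WT library A the log2 fold change was 5.68. Macrophage markers moved with the Ter119neg genotype: the 4 genes summed to between 19.9 and 24.9 CPM in KO and between 89.0 and 93.7 CPM in WT libraries, with none at 0. Erythroid markers summed to between 460 and 829 CPM in KO and between 230 and 279 CPM in WT libraries. Pecam1, Cdh5 and Kdr, endothelial markers, had sums of 8.62 to 11.4 CPM in KO and 18.7 to 22.1 CPM in WT libraries. The part of macrophages, erythroid cells or endothelial cells in the member values was not tested.

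**Figure D2:**
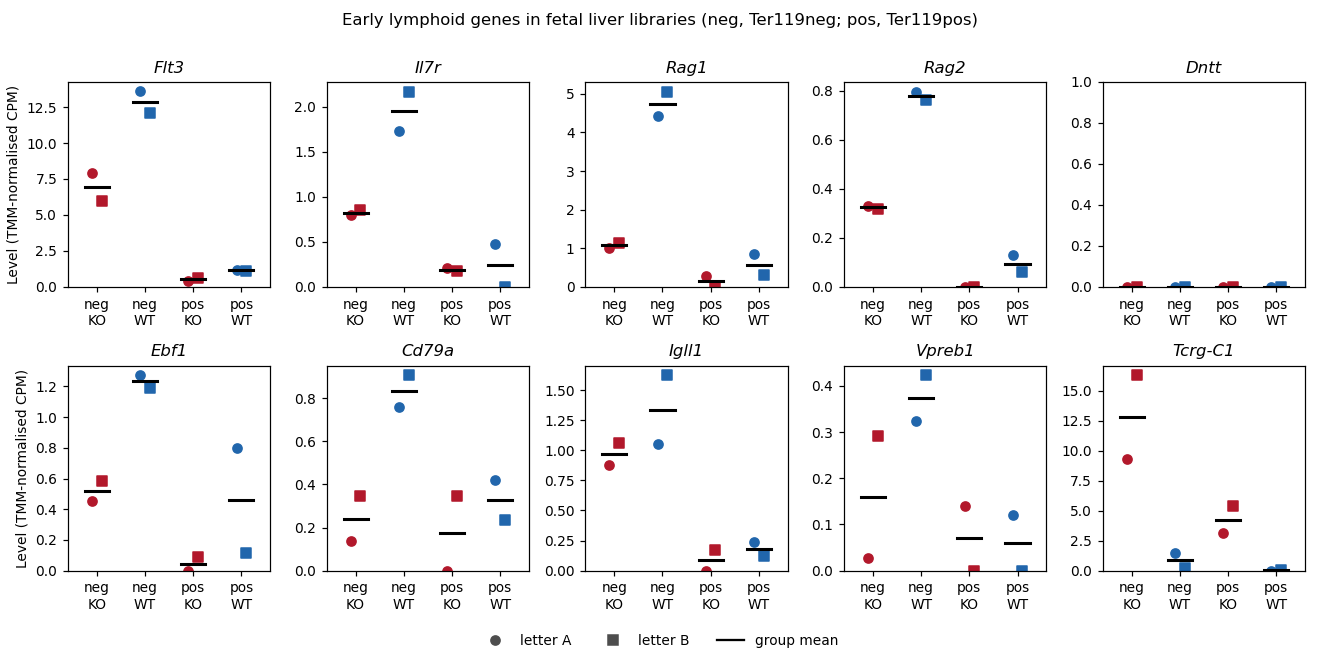
Level of each early lymphoid gene in fetal liver libraries (TMM-normalised CPM, linear axes that start at 0 and differ between panels), with KO left of WT for Ter119neg (neg) and Ter119pos (pos). Each point is a library and bars are group means. Ter119neg WT is highest for all shown genes but Tcrg-C1, which is highest in Ter119neg KO, and Dntt, which is at 0 in all 8 libraries.

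**Figure D3:**
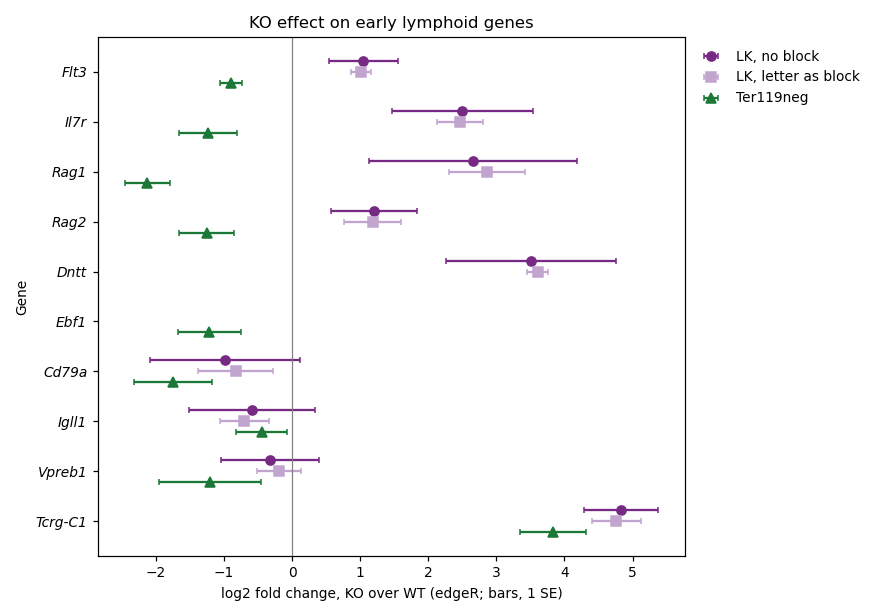
Log2 fold change of KO over WT (edgeR, bars are 1 SE) for each gene in LK cells without and with the letter as a block, and in Ter119neg cells. Flt3, Il7r, Rag1 and Rag2 lie above 0 in LK and below 0 in Ter119neg, and Tcrg-C1 lies above 0 in both; Ebf1 was not tested in LK and Dntt not in fetal cells.

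Flt3, Il7r, Rag1 and Rag2 thus had log2 fold changes of opposite sign in the 2 settings. Flt3 stood at 1.04 in LK and -0.89 in Ter119neg, Il7r at 2.498 and -1.24, Rag1 at 2.65 and -2.13, and Rag2 at 1.20 and -1.26. The plot of KO effects shows the blocked LK values with much shorter error bars around nearly the same estimates. The 2 settings differ in cell source, recombinase, injection and RNA kit and were fitted apart, so the difference between them was not tested.

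In Ter119pos cells, which are mostly erythroid, lymphoid transcripts were rare. In WT, 0 of 9 tested members were higher and 7 lower in Ter119pos than in Ter119neg cells, where 76.3% of all genes were called, 35.9% higher and 40.4% lower. The low-count filter ran over all fetal libraries, and with the 4 Ter119pos libraries alone it kept only 2 members. The other members passed through the Ter119neg libraries, so a lower Ter119pos level was partly fixed by the filter. The count of 7 is therefore a description and not a test. The log2 fold changes ran between -1.33 (Cd79a, edgeR adjusted p = 0.077) and -4.72 (Tcrg-C1, adjusted p = 0.0148), with a median of -3.01 against -0.19 over all genes. At an unadjusted p under 0.05 the counts were 0 higher and 8 lower, and DESeq2 called 0 higher and 6 lower, limma-voom 0 and 7. Flt3 had 1.20 and 1.12 CPM in the Ter119pos WT libraries A and B, against 13.6 and 12.1 CPM in the Ter119neg WT libraries A and B (log2 fold change -3.47, SE 0.22, edgeR adjusted p = 2.51e-08). The call of Ebf1 was lost without the Ter119neg WT library A or the Ter119pos WT library B, and that of Tcrg-C1 without the Ter119neg WT library A or either Ter119pos WT library. With the mouse as a block Tcrg-C1 was not called (-1.94, edgeR adjusted p = 0.14) and Vpreb1 was (-6.62, adjusted p = 0.0265).

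Between genotypes of Ter119pos cells, 1 member was called higher (Tcrg-C1) and 2 lower (Flt3 and Ebf1), where 54.2% of all genes were called, 24.8% higher and 29.3% lower. Both KO libraries were above both WT libraries for 1 member (Tcrg-C1) and below them for 4 (Rag1, Rag2, Flt3 and Ebf1), as for 35.8% and 39.8% of all tested genes. Tcrg-C1 had 45 counts in KO A and 62 counts in KO B, against 0 counts in WT A and 1 count in WT B. Per effective depth that is a ratio of 139, with a 95% interval from 24.4 to 5543 that covers counting error only (edgeR adjusted p = 0.000419). Flt3 rested on 13 counts in KO and 39 in WT (ratio 0.433, 95% interval 0.212 to 0.829, edgeR adjusted p = 0.0238), and Ebf1 on 1 and 15 counts (ratio 0.0866, interval 0.00206 to 0.563, adjusted p = 0.038). Limma-voom called 0 members lower. The call of Flt3 was lost without KO library A, WT library A or WT library B, and that of Ebf1 without KO library A, KO library B or WT library A. The other members had between 0 and 5 counts in KO and between 0 and 19 in WT over both libraries.

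Whether KO acted differently on Ter119pos and on Ter119neg cells was tested as an interaction, and 0 of 9 members were called in either direction, where 41.7% of all genes were called, 19.3% higher and 22.4% lower. At an unadjusted p under 0.05 the counts were again 0 and 0, as with DESeq2 and limma-voom. With the mouse as a block, since both KO mice and WT mouse 4 gave both fractions, 1 member, Il7r, was called higher (6.88 on the log2 scale, SE 2.42, edgeR adjusted p = 0.0218). In that fit WT rests on mouse 4, whose Ter119pos library had 0 counts of Il7r, so the value is not a fold. For Tcrg-C1 the difference without the block was 3.11 on the log2 scale (SE 1.95, edgeR adjusted p = 0.223). With so few Ter119pos counts the SEs of the other 8 ran between 0.44 and 2.18, and differences of that size were not detectable.

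The rest of the T cell receptor gamma locus had few reads. Tcrg-C1 lies at chr13:19214103-19217024 on the plus strand, and the gamma locus holds 3 further constant segments, of which Tcrg-C2 and Tcrg-C3 are near-identical to it over the coding sequence (97.4% and 96.9% of aligned bases) and Tcrg-C4 is not (78.7%). The first 120 coding bases of the 4 segments (GENCODE M21, GRCm38) are shown because reads from such close copies can be shared among them, and capitals mark bases that differ from Tcrg-C1.
Tcrg-C1: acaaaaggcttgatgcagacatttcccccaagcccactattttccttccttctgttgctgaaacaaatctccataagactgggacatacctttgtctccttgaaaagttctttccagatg
Tcrg-C2: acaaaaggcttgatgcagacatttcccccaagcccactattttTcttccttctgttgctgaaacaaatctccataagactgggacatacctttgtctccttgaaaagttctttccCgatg
Tcrg-C3: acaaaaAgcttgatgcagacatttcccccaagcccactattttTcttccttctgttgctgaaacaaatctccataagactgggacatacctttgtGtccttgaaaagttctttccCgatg
Tcrg-C4: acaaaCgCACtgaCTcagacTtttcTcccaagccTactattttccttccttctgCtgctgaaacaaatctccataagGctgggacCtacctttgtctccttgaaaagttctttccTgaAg
Summed over the libraries of a group, Tcrg-C1 had 1709 counts in LK KO and 63 in LK WT, 949 in Ter119neg KO and 86.0 in Ter119neg WT, and 107 in Ter119pos KO and 1 in Ter119pos WT. Tcrg-C2 had 20 counts in LK KO and 7 in LK WT, and Tcrg-C4 24 in LK KO and 20 in LK WT. No constant segment other than Tcrg-C1 exceeded 3 counts in any fetal group.

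The variable and joining segments, which a productive receptor transcript would carry upstream of the constant segment, were almost without reads. The 11 variable and joining segments in the tables together had 3 counts in LK KO and 2 in LK WT, 9 in Ter119neg KO and 4 in Ter119neg WT, and 2 each in Ter119pos KO and WT. None of these segments and none of Tcrg-C2 to Tcrg-C4 passed the filter for testing. The nearest tested protein-coding gene, Stard3nl, had a log2 fold change of -0.21 in LK (SE 0.29, edgeR adjusted p = 0.742) and of -0.06 in Ter119neg (SE 0.17, adjusted p = 0.856). Of the 5 T cell markers Cd3d, Cd3e, Cd3g, Lck and Trac, which summed to between 2.79 and 12.3 CPM in LK KO and between 0.991 and 2.71 CPM in LK WT libraries, Lck gave most of the sum, and Cd3e had 1 count over the 3 KO libraries and 0 in WT. In Ter119neg cells they summed to between 1.04 and 1.30 CPM in KO, with Cd3e and Trac at 0, and to between 1.50 and 1.53 CPM in WT, with Cd3e at 0.

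**Figure D4:**
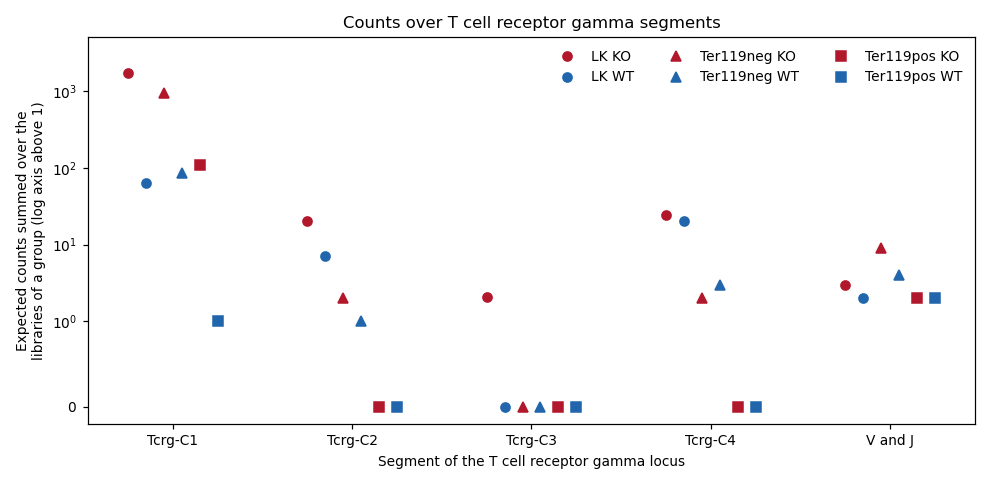
Expected counts over T cell receptor gamma segments, summed over the libraries of each of the 6 groups (log axis above 1 count, linear below), with KO left of WT for each cell population. Tcrg-C1 reaches 1709 counts in LK KO and 949 in Ter119neg KO, while each of Tcrg-C2, Tcrg-C3 and Tcrg-C4, and the sum of the 11 variable and joining segments, stays at 24 counts or below.

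Genes with the nearest profile to each member were taken by the root mean square difference of centred log2 CPM. For Tcrg-C1 over the 6 LK libraries they were Cdkn1a (0.31), the gene of the cell cycle inhibitor p21, the adenylate kinase gene Ak1 (0.46) and the creatine kinase gene Ckmt1 (0.49), where the profile of Tcrg-C1 itself had a root mean square of 2.44. Over the 8 fetal libraries they were Prrg4 (0.43), Fam198b (0.54) and the kinase gene Plk2 (0.67), where Tcrg-C1 itself had 2.75. For Flt3 the nearest genes were Epb4.1l4b (0.18), Ablim1 (0.18) and BC016579 (0.22) over LK libraries, and Satb1 (0.18), Rin3 (0.28) and Pde2a (0.28) over fetal libraries. Satb1 is the gene of a chromatin organiser used in lymphoid-primed progenitors. Its lower level in Ter119neg KO follows from its being picked for likeness to Flt3, which was lower there, and adds no support. Il7r lay nearest to St6gal1 (0.57), Tox (0.58) and Icos (0.61) over LK libraries and to Fgr (0.27), Psmb9 (0.34) and Dok3 (0.35) over fetal libraries. For Rag1 the nearest over fetal libraries were Lpcat2 (0.53), the immunoglobulin heavy chain gene Ighm (0.61) and Slfn8 (0.62).

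Other genes of the early lymphoid program were read from lists that leave out the 10 members. The lists were chosen with earlier results of these data known, and some genes are shared between lists. Of 17 tested genes of lymphoid-primed progenitors, 0 were called higher or lower in LK without the block. At an unadjusted edgeR p under 0.05 there were 4 and 0, by DESeq2 2 and 0, and by limma-voom 0 and 0. With the letter as a block 6 were called higher and 0 lower, where 9.9% of all genes were higher and 12.8% lower. Among the 6 was Mef2c, a transcription factor of lymphoid-primed cells. It stood at 83.7 CPM in KO and 46.3 CPM in WT (edgeR adjusted p = 0.177, and 0.00816 with the block). The receptor gene Notch1 stood at 149 CPM in KO and 92.9 CPM in WT (edgeR adjusted p = 0.186, and 0.0205 with the block). In Ter119neg cells 5 of 18 fell and 0 rose, with 0 higher also at an unadjusted edgeR p under 0.05, by DESeq2 and by limma-voom, where 9.55% of all genes fell. Examples are Lsp1, at 13.3 CPM in KO and 31.7 CPM in WT (edgeR adjusted p = 0.000197), and Satb1, at 6.80 CPM in KO and 12.4 CPM in WT (adjusted p = 0.0052).

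Of the B lineage transcription factors, 0 of 11 tested were called in LK without the block. At an unadjusted edgeR p under 0.05 there were 3 higher and 1 lower, by DESeq2 1 and 1, and by limma-voom 0 and 0. With the block 4 were higher and 2 lower, where 9.9% of all genes were higher and 12.8% lower. In Ter119neg cells 3 of 15 fell and 0 rose (1 higher at an unadjusted edgeR p under 0.05, 0 by DESeq2 and by limma-voom), where 9.55% of all genes fell. Among those that fell was Irf8, which is also in the granulocyte and monocyte list. Irf8 stood at 8.89 CPM in KO and 22.6 CPM in WT (edgeR adjusted p = 0.000412). Pax5, which fixes B cell identity, fell as well, at 0.714 CPM in KO and 1.76 CPM in WT (edgeR adjusted p = 0.0256). Of 17 tested B cell surface and signalling genes, 1 fell and 0 rose in LK. At an unadjusted edgeR p under 0.05 there were 2 higher and 3 lower, by DESeq2 2 and 2, and by limma-voom 0 and 1. With the block 2 were higher and 4 lower, to set beside the same 9.9% and 12.8% of all genes. The 1 called without the block was Cd74, the invariant chain of antigen presentation, at 6.42 CPM in KO and 37.0 CPM in WT (edgeR adjusted p = 0.0187). The adaptor gene Blnk stood higher in KO, at 5.59 CPM in KO and 1.01 CPM in WT, and passed with the block (edgeR adjusted p = 0.00363) but not without it (0.16). In the same LK libraries Ighm stood lower in KO within every letter. Its levels for A, B and C were 165, 69.0 and 109 CPM in KO and 219.5, 137 and 158 CPM in WT. The B lineage marker Cd79b was also lower in each, at 22.9, 13.0 and 17.5 CPM in KO and 28.6, 27.0 and 19.3 CPM in WT. In Ter119neg cells 7 of 17 fell and 2 rose, where 9.55% of all genes fell and 9.57% rose. DESeq2 called 5 lower and 1 higher there, and limma-voom 10 and 2. Ighm fell to 3.81 CPM in KO, against 10.4 CPM in WT (edgeR adjusted p = 0.00121).

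Among 17 tested T and NK cell genes 1 rose and 0 fell in LK (1 lower at an unadjusted edgeR p under 0.05, 0 by DESeq2 and by limma-voom). It was Lat, an adaptor of the T cell receptor that other blood cells also use. Lat stood at 17.4 CPM in KO and 3.48 CPM in WT (log2 fold change 2.33, edgeR adjusted p = 0.0312). With the block 4 genes of the list were higher and 1 lower, where 9.9% of all genes were higher and 12.8% lower. In Ter119neg cells 2 of 13 fell and 0 rose (0 higher also at an unadjusted edgeR p under 0.05, by DESeq2 and by limma-voom), a share close to the 9.55% of all genes that fell. Among them was Id2, the gene of an inhibitor of E proteins, at 5.10 CPM in KO and 10.2 CPM in WT (edgeR adjusted p = 0.0135). Of 14 tested genes of V(D)J recombination and end joining other than Rag1, Rag2 and Dntt, 0 were called in LK without the block (1 higher and 1 lower at an unadjusted edgeR p under 0.05, 0 and 0 by DESeq2 and by limma-voom), and 3 were higher and 2 lower with it, where 9.9% of all genes were higher and 12.8% lower. In Ter119neg cells 5 of 14 fell and 0 rose, where 9.55% of all genes fell, while 2 were higher at an unadjusted edgeR p under 0.05 and by limma-voom and 0 by DESeq2. Among those that fell was the DNA damage kinase gene Atm at 25.4 CPM in KO and 35.1 CPM in WT (edgeR adjusted p = 0.00552).

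Of 17 tested genes of IL-7 and FLT3 signalling, 4 rose and 2 fell in Ter119neg cells, where 9.57% of all genes rose and 9.55% fell. Feedback inhibitors were among those that rose, and so was Gab2, at 24.4 CPM in KO and 12.9 CPM in WT (edgeR adjusted p = 0.000932). Cish, a target and inhibitor of STAT5 signalling, rose to 5.27 CPM in Ter119neg KO, against 1.31 CPM in WT (log2 fold change 2.00, SE 0.21, edgeR adjusted p = 6.79e-05), and Socs2 to 3.95 CPM in KO, against 1.68 CPM in WT (adjusted p = 0.0027). Jak3, the kinase on the receptor chain that partners IL-7R alpha, fell to 8.22 CPM in Ter119neg KO, against 17.96 CPM in WT (adjusted p = 0.000337). In LK 0 of 18 were called without the block. At an unadjusted edgeR p under 0.05 there were 4 higher and 1 lower, by DESeq2 3 and 0, and by limma-voom 0 and 0. With the block 5 were higher and 1 lower, where 9.9% of all genes were higher and 12.8% lower. Cish stood at 8.14 CPM in LK KO and 2.66 CPM in LK WT (edgeR adjusted p = 0.0608; with the block 0.00395), and Socs2 at 3.33 CPM in LK KO and 0.491 CPM in LK WT (0.0685; with the block 0.00338).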

How the data were processed

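RNA was sequenced from 14 libraries made with a stranded total RNA kit, per the labels' protocols. Alignment used STAR 2.5.3 and quantification RSEM, with GRCm38 (mm10) as the build, per the submitters' processing notes. For RSEM, the version, annotation and strand setting are not given in the sources used. The deposited values are the authors' RSEM expected counts per gene, which were rounded to whole numbers here.

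Tests were quasi-likelihood fits of edgeR 4.0.16 (R 4.3.3) with TMM scaling and filterByExpr. The 6 LK libraries formed 1 model, with 13771 genes, and the 8 fetal libraries another, with 15566. Benjamini-Hochberg adjustment ran over all tested genes, and adjusted p-values under 0.05 were called. CPM are TMM-normalised. DESeq2 1.42.0 and limma-voom (limma 3.58.1) were alternatives, with RLE scaling, no filter, removal of a length trend, letter or mouse blocks, models of 1 fraction, and libraries left out. Intervals at 95% and floors of 3 counts cover counting error only. The fits were tested on simulated data with genes changed 2-fold or 4-fold. The LK fit without the block called 0% of the 2-fold and 24% of the 4-fold genes, with 0 false calls. The Ter119neg fit called 65% and 93%, with 22 false calls. The simulated fetal data gave each gene the same mean in both fractions, unlike the real data. Those rates need not hold for genes that differ between fractions. A gene or list with 0 calls in LK without the block is thus not shown to be unchanged.

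Same-letter LK libraries correlated (0.604, 0.719 and 0.73), and the labels do not say what letters share. Fetal letters did not (0.00472 and -0.0288). Mice 1 and 2 had 0.155 and mouse 4 had -0.0678 across fractions, and a mouse block was an alternative for comparisons across fractions.

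The members and the lists were chosen with earlier results of these data known. The text names the members, Prmt5, T cell receptor gamma segments, from each list up to 4 genes with the smallest p, and the 3 genes nearest to Flt3, Il7r and each called member. Gene positions and lengths are from GENCODE M21, in which 45143 genes matched. Of the 10 members all but Tcrg-C1 had a RefSeq promoter. No data column was left unassigned. Some genes picked by that rule, and some marker lists, are not reported here.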

Additional observations from a re-analysis of the deposited data

Results flagged for a closer look

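Genes stood out here when every LK letter had KO above WT while both Ter119neg KO libraries were below both Ter119neg WT libraries. The share of all genes that met both conditions was not computed, and 31% of all tested genes met the Ter119neg condition. The members below are therefore described and not shown to be unusual. Rag1 had a log2 fold change of 2.87 in LK with the letter as a block and of -2.13 in Ter119neg. For Il7r the values were 2.47 in LK and -1.24 in Ter119neg, and for Flt3 they were 1.01 in LK and -0.89 in Ter119neg. Ebf1, too low to be tested in LK, had a median log2 ratio of 0.96 within LK letters, from as few as 2 counts in KO and 1 in WT in letter C, and a log2 fold change of -1.22 in Ter119neg. The difference between LK and Ter119neg was not tested, since the 2 sets of libraries differ in cell source, recombinase, injection and RNA kit.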

How the results depend on the processing

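For LK, 250 genes were called, against 1074 by DESeq2, 3129 with the letter as replicate block, 474 with a transcript length trend removed, 71 without both letter B libraries, 14 without both letter C libraries, and 33 to 268 with 1 library left out. Members called higher in LK numbered 1, against 5 with the replicate block, 0 without both letter B or both letter C libraries, and 0 to 1 with 1 library left out. Prmt5 missed the threshold in LK without KO library A, B or C or both letter C libraries, at log2 fold changes of -2.86 to -2.75. In Ter119neg, 2976 genes were called and 1450 to 1788 with 1 library left out; members called lower numbered 2, against 4 with RLE scaling, 6 without the filter, 5 by limma-voom and 6 with the 4 Ter119neg libraries alone. In Ter119pos, members called lower numbered 2, against 1 by DESeq2, 0 by limma-voom, 0 with the 4 Ter119pos libraries alone (2 members tested), and 0 to 2 with 1 library left out. The KO effect differed between fractions for 0 members, against 1 without the filter, 1 with mouse as block, and 0 to 1 with 1 library left out. Signs reversed in LK for Vpreb1 with the length trend removed (0.052) and without both letter B libraries (0.13), in Ter119pos for Il7r by limma-voom (0.93), and for the difference between fractions for Igll1 with mouse as block (0.17). With 1 library left out, log2 fold changes that crossed 0 ran in LK between -0.039 and 5.64 for Rag1 (lowest without KO A), -2.59 and 0.27 for Cd79a (highest without WT A) and -0.80 and 0.22 for Vpreb1 (above 0 without KO C, 0.062, or WT B). In Ter119pos they ran between -1.30 and 5.56 for Il7r, -6.34 and 0.074 for Cd79a and -3.94 and 4.27 for Vpreb1 (-0.62 without WT B). For the difference between fractions they ran between -4.97 and 1.21 for Rag1 (-0.29 without Ter119pos WT B), -0.061 and 6.80 for Il7r, -0.56 and 0.061 for Flt3, -4.58 and 1.83 for Cd79a, -5.03 and 0.40 for Igll1 and -2.74 and 5.48 for Vpreb1. In Ter119neg none of 90 values for the members reversed and none lost its call, while 13 gained a call. The cause of these changes was not tested. With 5 or fewer counts in a group, Ter119pos values are limited by depth.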

Other observations

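Gene lists of neighbouring cell types moved as follows. Over all genes, the shares to set beside every list were 9.57% higher and 9.55% lower in Ter119neg cells. In LK they were 1.15% higher and 0.661% lower, and with the letter as a block 9.9% and 12.8%. Of 18 granulocyte and monocyte genes, 2 fell and 0 rose in LK (16 lower and 0 higher with the letter as a block), among them Klf4, a transcription factor of monocytes, at 2.70 CPM in KO and 28.3 CPM in WT (edgeR adjusted p = 0.0136). In Ter119neg cells 7 of 18 fell and 0 rose, among them the growth factor receptor gene Csf1r at 16.9 CPM in KO and 53.7 CPM in WT (adjusted p = 4.6e-05). All 15 macrophage genes tested in Ter119neg cells fell, for example the complement gene C1qc, at 1.05 CPM in KO and 8.26 CPM in WT (adjusted p = 1.3e-05), and in LK 2 of 8 fell, and 4 with the block. Of 12 erythroid genes 6 rose and 1 fell in Ter119neg cells, and in LK 1 fell, against 1 higher and 3 lower with the block.

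Of the stem and multipotent progenitor genes, Slamf1, a surface marker of stem cells, rose in both settings: it stood at 4.17 CPM in LK KO and 0.970 CPM in LK WT (edgeR adjusted p = 0.0313), and at 3.27 CPM in Ter119neg KO and 1.23 CPM in Ter119neg WT (adjusted p = 0.00195). It was the 1 of 14 called in LK without the block, with which 5 were higher and 0 lower, while in Ter119neg cells 1 rose and 2 fell. Of the dendritic cell genes, 0 of 12 were called in LK by edgeR (2 higher and 2 lower at an unadjusted p under 0.05, 2 and 1 by DESeq2, 0 and 0 by limma-voom, and 3 and 2 with the letter as a block), and 1 of 13 rose and 2 fell in Ter119neg cells, the lower ones being the nucleic acid sensors Tlr7 and Tlr9. Of hepatoblast genes 1 of 11 fell in Ter119neg cells, Alb at 64.5 CPM in KO and 120 CPM in WT (adjusted p = 0.049). Of 11 endothelial and stromal genes 3 rose and 4 fell there, with Cdh5, the cadherin of endothelial cells, at 1.35 CPM in KO and 6.14 CPM in WT (adjusted p = 0.000756).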
